A study of Mus musculus with 4 samples.

Results

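Gjb6, Gja1 and Gjb2 encode the gap junction proteins connexin 30 (Cx30), connexin 43 (Cx43) and connexin 26 (Cx26), and they were followed here together with the RNA of the reporter by which the cells had been sorted. The members were 5 of the 32287 gene expression features of the series, taken by name: the 3 connexin genes and the added sequences tdTomato-WPRE and EGFP. Single cells of mouse spinal cord were measured with 10x Genomics 3' chemistry in 2 conditions. The injured condition was taken 3 days after a contusion, and the uninjured condition came from cords at the same level without injury, 5 mm of cord in each case. All animals of both conditions were adult Cx30-tdTomato mice, a cross of a Cx30 line with the R26R-tdTomato Cre reporter, had received tamoxifen, and had been given a pool of adeno-associated viruses with enhancers in front of a yellow fluorescent reporter. Cells positive for tdTomato were sorted. The methods state that each condition included females and males, but only 2 cells of the uninjured library scored female, against 2770 male. Each condition was 1 library, so that no difference between the conditions has a replicate check.

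Connexins assemble as hexamers in the cell membrane, and hexamers of touching cells dock to form channels through which ions and small metabolites pass. Cx43 and Cx30 are the main connexins of astrocytes and join them into a coupled network, while Cx26 and Cx30 are also known from the fibroblasts of the leptomeninges. In a tamoxifen-inducible Cre line recombination is permanent, and the reporter is then transcribed from the Rosa26 locus and no longer from the promoter that drove Cre. Reporter RNA is therefore meant to mark cells that had an active driver at the time of tamoxifen, and its level is not a reading of Gjb6 transcription at the time of sampling. A reporter UMI alone does not show such a history, since some were also counted in microglia-like cells, as given below.

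On GRCm38, Gjb6 (ENSMUSG00000040055) lies on the minus strand at chr14:57123303-57133611, and Gjb2 (ENSMUSG00000046352) lies next to it on the same strand at chr14:57098600-57104702. They are 18.6 kb apart, with 1 annotated gene, Gm4491, between them. Gja1 (ENSMUSG00000050953) lies on the plus strand at chr10:56377330-56402513. None of the 3 overlaps another annotated gene, so their 3' reads have no competing gene at the locus. The 250 bases before the RefSeq start of each gene (GRCm38.p6, 5' to 3' on the strand of the gene) are shown because Gjb6 gives the reporter line its name and because the 3 genes had different class patterns below. They lie at chr14:57133612-57133861 (minus strand), chr14:57104703-57104952 (minus strand) and chr10:56377050-56377299 (plus strand), with motif matches in capitals.
Gjb6: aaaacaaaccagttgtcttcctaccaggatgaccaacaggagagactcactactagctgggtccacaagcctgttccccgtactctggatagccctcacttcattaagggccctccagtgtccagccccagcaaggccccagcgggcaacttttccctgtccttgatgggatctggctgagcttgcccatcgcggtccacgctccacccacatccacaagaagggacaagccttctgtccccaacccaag
Gjb2: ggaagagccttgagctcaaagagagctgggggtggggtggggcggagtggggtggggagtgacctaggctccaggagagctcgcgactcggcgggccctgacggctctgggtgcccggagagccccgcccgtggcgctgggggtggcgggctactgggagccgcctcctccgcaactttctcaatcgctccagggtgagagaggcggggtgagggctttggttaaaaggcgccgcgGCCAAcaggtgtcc
Gja1: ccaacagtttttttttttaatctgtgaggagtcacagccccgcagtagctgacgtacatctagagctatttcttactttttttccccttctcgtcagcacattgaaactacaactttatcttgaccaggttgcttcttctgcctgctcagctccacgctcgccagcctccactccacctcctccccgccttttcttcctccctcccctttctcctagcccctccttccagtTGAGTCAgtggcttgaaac
Of 3 motifs searched on both strands, the AP-1 motif TGANTCA matched in the Gja1 window, where its first base lies 19 bases before the start. The site TTGGC of the nuclear factor I family matched on the opposite strand of the Gjb2 window, 14 bases before the start. The SOX motif ACAANG matched in none of the 3 windows, and no matches overlapped. Among 32851 promoter windows of the same length, 6.75% held the AP-1 motif, 41.5% the TTGGC site and 36.3% the SOX motif, so a match to either of the last is common. GC content was 56.8% for Gjb6, 69.2% for Gjb2 and 50% for Gja1.

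After the count filter, 879 of 919 injured and 4159 of 4159 uninjured cell barcodes remained, with 8499672 and 15543460 gene UMIs (unique molecular identifiers, 1 per captured RNA molecule) and medians of 6816 and 3343 per cell. Clustering without the members gave 13 clusters, 12 of which fell into 7 marker-defined classes. Cells with astrocyte markers and neuron genes such as Nefl and Snap25 formed cluster 6, which stayed unnamed (24 injured and 464 uninjured cells). Within each named class all of its defining markers exceeded 10 CPM in both conditions, except Acta2, which was at 0 in the 3 uninjured mural-like cells. Markers of other lists were found too. In the injured library the 9 astrocyte markers summed to 1902 CPM in ependymal-like, 1832 CPM in OPC-like, 25.4 CPM in endothelial-like and 52.3 CPM in microglia-like cells. Erythroid markers summed to 6130 CPM in injured endothelial-like cells. The part of such RNA in the levels below was not tested. By Y-linked genes and Xist, 315 injured cells scored male and 250 female, against 2770 male and 2 female in the uninjured library. The uninjured counts thus go against the pooling of both sexes that the methods state. The conditions therefore differed in sex composition. The libraries shared 7 cell barcodes, and leaving these cells out moved none of the astrocyte-like results beyond its interval; it was not run for the other classes. Astrocyte-like cells numbered 387 injured (44.0%) and 3495 uninjured (84.0%), and these shares follow a sort.

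Gjb6 RNA was concentrated in astrocyte-like cells and, at a lower level, in fibroblast-like cells. In astrocyte-like cells its summed level was 496 CPM (UMIs of a gene per 1000000 gene UMIs; 95% Poisson interval 466 to 527, 1025 UMIs) in injured cord and 638 CPM (624 to 652, 8364 UMIs) in uninjured cord. These and all later intervals cover counting error alone, not differences between animals or libraries. Fibroblast-like cells had 79.0 CPM (59.8 to 102) in injured and 259 CPM (207 to 320) in uninjured cord. Astrocyte-like cells thus exceeded fibroblast-like cells 6.28-fold in the injured library (4.81 to 8.35) and 2.46-fold in the uninjured library (1.99 to 3.09). The injured fibroblast-like value is that of cells under the upper count limit and was lower without the limit, as given below.

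The other classes held little Gjb6. In ependymal-like cells, the ciliated lining of the central canal, there were 16 UMIs in injured cord (9.44 CPM), all in 2 of 144 cells, and 5 UMIs in 3 of 31 uninjured cells (31.5 CPM). Progenitors of oligodendrocytes (OPC-like cells) held 10 UMIs after injury and 0 in the 14 uninjured cells, which allows up to 31.6 CPM (3 counts). The injured OPC-like class itself depended on the clustering. Of its 70 cells, 46 stayed OPC-like when no cells were filtered, while 23 joined the astrocyte-like and 1 the ependymal-like class. These 46 cells held 0 UMIs of Gjb6, 1 UMI of Gja1 and 64 UMIs of the reporter, and when the members were kept in clustering 41 injured OPC-like cells held 0, 1 and 62. Endothelial-like cells had 0 UMIs among 748963 injured gene UMIs, which allows up to 4.01 CPM, and 1 UMI in uninjured cord. Microglia-like cells, in which connexin 30 is not known, had 4 and 1 UMIs. At these counts the order of the last classes was not resolved, since the intervals of OPC-like cells (4.05 to 15.5 CPM) and ependymal-like cells (5.40 to 15.3 CPM) overlapped in the injured library.

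Gja1 had the wider distribution. Astrocyte-like cells held 1259.6 CPM in injured (1212 to 1309) and 1445 CPM in uninjured cord (1424 to 1465). In injured cord they were followed by fibroblast-like cells with 304 CPM (265 to 347) and ependymal-like cells with 271 CPM (247 to 297), neighbours whose intervals overlapped. In the uninjured library the order of both was the other way round, with 341 CPM in ependymal-like cells (256 to 445) and 161 CPM in fibroblast-like cells (121 to 211), and these intervals did not overlap. Endothelial-like cells had 80.1 CPM (61.1 to 103) and 123 CPM (65.3 to 210). In OPC-like cells 59 injured UMIs came from 8 of 70 cells, of which the top 3 cells gave 40, and 1 UMI remained in the 46 cells of the unfiltered clustering. The uninjured OPC-like cells held 1 UMI. Microglia-like cells had 6 UMIs (3.17 CPM) in injured cord and 0 in uninjured cord, which allows up to 25.7 CPM, and no UMI was found in the 13 injured and 3 uninjured mural-like cells, so that the lowest class was not resolved.

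Under the upper count limit Gjb2 was highest in fibroblast-like cells of both libraries, but in the injured library this rested on the limit. Fibroblast-like cells had 76.2 CPM in injured (57.4 to 99.2) and 82.2 CPM in uninjured cord (54.2 to 120), against 9.19 CPM (5.54 to 14.4) and 13.1 CPM in astrocyte-like cells. The ratio of fibroblast-like to astrocyte-like cells was 8.29 (4.85 to 14.8) in the injured and 6.27 (4.01 to 9.44) in the uninjured library. The injured fibroblast value rested on few cells, as 27 of its 55 UMIs came from 3 cells. With no limit, 81 injured fibroblast-like cells had 14.6 CPM (11.0 to 18.9) and 381 astrocyte-like cells 10.7 CPM (6.80 to 16.1), a ratio of 1.36 whose interval included 1 (0.824 to 2.31). Within the uninjured fibroblast-like cells, Gjb2 separated both clusters: 192 CPM (124 to 283, 25 UMIs) in cluster 9, led by Bgn, Col3a1 and Lum, and 10.1 CPM (1.22 to 36.5, 2 UMIs) in cluster 12, led by Apod and Gsn. Ependymal-like, endothelial-like and microglia-like cells had 0 UMIs of Gjb2 in both conditions, which allows up to 1.77, 4.01 and 1.59 CPM in the injured library.

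**Figure D1:**
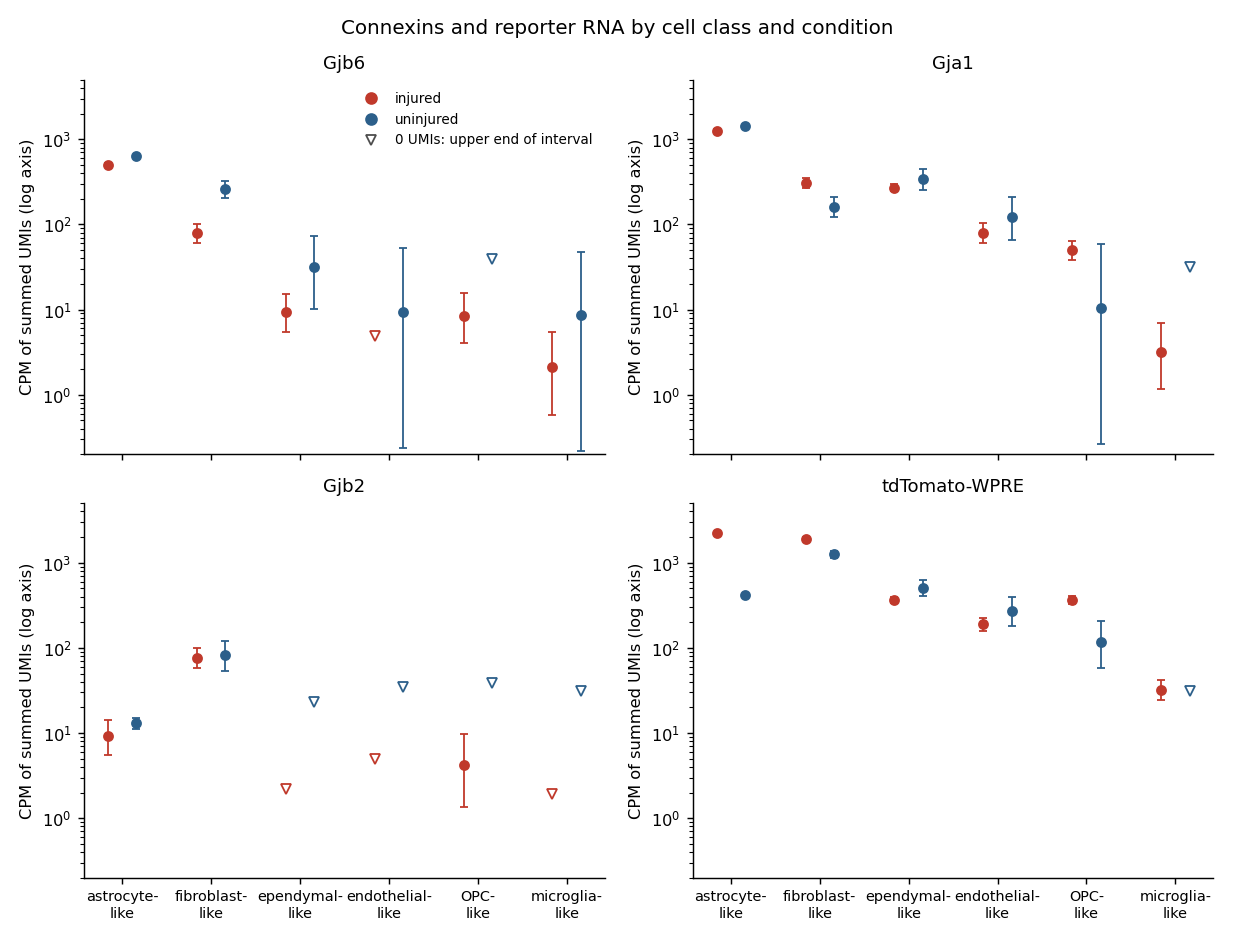
Summed level of 3 connexin genes and of tdTomato-WPRE in 6 cell classes, in CPM on a log axis, for the injured (red) and uninjured (blue) library; bars are 95% Poisson intervals and open triangles mark the upper end of the interval where no UMI was counted. Gjb6 is highest in astrocyte-like cells (496 and 638 CPM), and Gjb2 in fibroblast-like cells (76.2 and 82.2 CPM). In the injured library the Gjb2 order rests on the upper count limit. Without it the ratio of fibroblast-like to astrocyte-like cells is 1.36 (0.824 to 2.31). The reporter reaches 2220.1 CPM in injured against 415 CPM in uninjured astrocyte-like cells.

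Reporter RNA was found in every class with over 20 cells in the injured library, and its order differed from that of Gjb6. Of all kept cells, 71.1% of injured and 66.1% of uninjured cells held a tdTomato-WPRE UMI. In the uninjured library fibroblast-like cells were highest with 1260.4 CPM (1142 to 1388), 3.04-fold the astrocyte-like level (2.74 to 3.36). There followed ependymal-like cells with 511 CPM (406 to 635) and astrocyte-like cells with 415 CPM (404 to 426), whose ratio of 1.23 had an interval that included 1 (0.976 to 1.53). Endothelial-like cells came next with 274 CPM (183 to 393) and OPC-like cells with 116 CPM (57.9 to 208). Microglia-like cells had 0 reporter UMIs among 116919 gene UMIs in 31 cells, which allows up to 25.7 CPM.

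In the injured library astrocyte-like cells led with 2220.1 CPM (2156 to 2285), 1.15-fold the fibroblast-like level of 1926 CPM (1826 to 2030). Ependymal-like and OPC-like cells had 367 CPM (339 to 397) and 366 CPM (332 to 402). The OPC-like value rested on few cells, since 3 of them gave 192 of its 433 UMIs, and it was 62.8 CPM (48.4 to 80.2) in the 46 cells that stayed OPC-like without a filter. The ependymal-like value was 502 CPM (469 to 536) there, and the place of OPC-like cells in the order was thus not settled. Within the limit, 3 ependymal-like cells gave 227 of the 622 reporter UMIs of that class. Endothelial-like cells had 189.6 CPM (159.7 to 223). Microglia-like cells, which should lack the reporter, held 61 UMIs (32.3 CPM, 24.7 to 41.4) in 27.3% of cells at a median of 13724 gene UMIs, and astrocyte-like cells a UMI in 87.1% at a median of 3692. After each cell was thinned to 1000 gene UMIs, the reporter was found in 4.96% of microglia-like, 23.9% of endothelial-like, 23.1% of ependymal-like, 30.4% of OPC-like, 72.7% of astrocyte-like and 80.0% of fibroblast-like injured cells. Endothelial-like and ependymal-like cells were thus above the microglia-like share with almost no Gjb6. The OPC-like share was taken over the 70 cells of the filtered clustering.

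EGFP was counted 1 time in the whole series, in 1 injured astrocyte-like cell, although a yellow fluorescent reporter was delivered by the viruses and 2844 enhancer barcode UMIs were counted in the kept cells. No level or ratio can be given for it.

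The first question about the conditions was whether connexin RNA of astrocytes differed after injury. Gjb6 was 0.778-fold (0.728 to 0.830) and Gja1 0.872-fold (0.837 to 0.908) in injured against uninjured astrocyte-like cells, and Gjb2, with 19 injured UMIs, had an interval that included 1 (0.701-fold, 0.412 to 1.13). The reporter was 5.35-fold higher (5.14 to 5.56). On the log2(CPM + 1) scale the differences were -0.36 for Gjb6, -0.20 for Gja1, -0.47 for Gjb2 and 2.42 for tdTomato-WPRE, beside a median of 0.0076 over the 9898 genes with at least 10 CPM in 1 condition. Of the 4 members tested in this sense, 1 was past 2-fold and higher in injured cells and 0 were past 2-fold and lower. Over all genes 10.9% were past 2-fold and higher, 6.31% were past it and lower, and 17.2% in all. The reporter lay at the 97.8 percentile of the genes, while Gjb6, Gja1 and Gjb2 lay at the 29.5, 38.7 and 24.1 percentiles, well inside the bulk.

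Shares of cells showed the same order. In thinned astrocyte-like cells a Gjb6 UMI was found in 31.0% of injured (26.2 to 36.1%) and 44.0% of uninjured cells (42.4 to 45.7%), and in 56.3% and 80.1% without thinning. For Gja1 the thinned shares were 50.4% (45.1 to 55.7%) and 68.9% (67.3 to 70.4%), and 63.8% and 90.4% without thinning. Among thinned microglia-like cells 0 of 121 injured (upper end 3.00%) and 0 of 28 uninjured cells (12.3%) held a Gjb6 UMI. The reporter went the other way, with 72.7% of injured (67.7 to 77.2%) and 31.9% of uninjured cells. At least 6 reporter UMIs per 1000 gene UMIs were found in 36 of 355 injured cells and in 1 of 3428 uninjured cells.

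**Figure D2:**
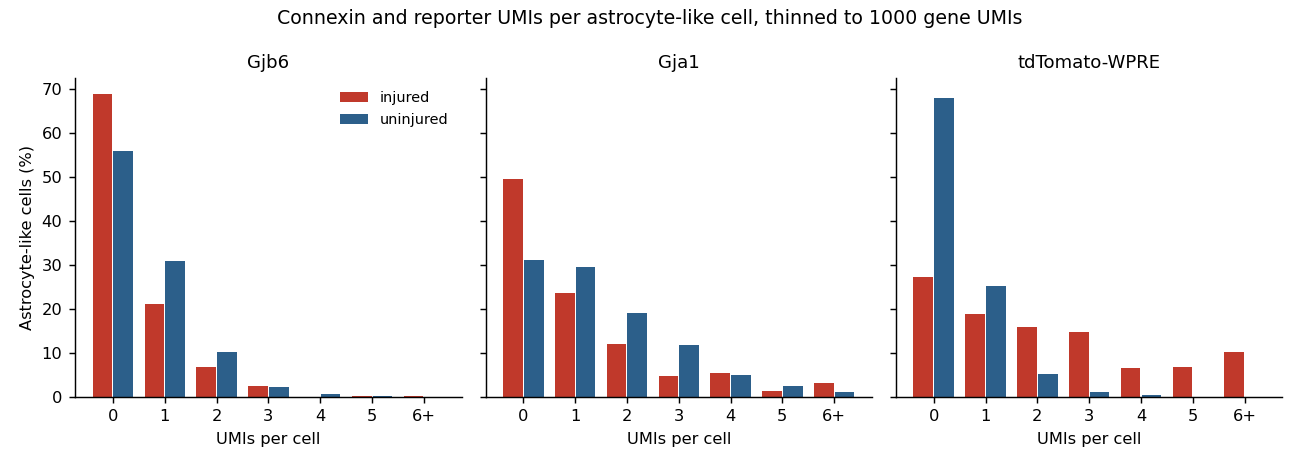
UMIs per astrocyte-like cell of Gjb6, Gja1 and tdTomato-WPRE after each cell was thinned to 1000 gene UMIs (355 injured cells in red, 3428 uninjured cells in blue), as a percentage of the cells of that condition. For both connexins the injured bars are higher at 0 UMIs (69.0% against 56.0% for Gjb6), whereas for the reporter 68.1% of uninjured and 27.3% of injured cells are at 0.

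The astrocyte-like cells of the conditions lay in different clusters, and this bears on each of these ratios. Of the injured cells, 79.1% were in cluster 1, led by Gfap, Lcn2 and Tgm1, and 13.7% in cluster 5, which was led by Taco1, Gm26917 and mt-Nd6 and had a low median depth of 1974 gene UMIs. Of the uninjured cells, 0.429% were in cluster 1, with 25.5% in cluster 4 (Car14, Hsd11b1), 22.3% in cluster 5, 19.5% in cluster 8 (Cldn10, Aldoc) and 32.3% in cluster 11 (Gabbr2, Gria1). For Gjb6 the ratio within clusters was not below 1 except in cluster 5, where the level was 271 CPM after injury and 453 CPM without (0.598-fold, 0.395 to 0.871). In cluster 1 the levels were 488 CPM and 313 CPM (1.56-fold, 1.07 to 2.38, with 15 uninjured cells), which is the opposite direction to the class as a whole. Clusters 4, 8 and 11 gave 1.40-fold (0.988 to 1.93), 1.08-fold (0.763 to 1.49) and 1.06-fold (0.664 to 1.61), each with 8 to 11 injured cells.

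For Gja1 the ratio within clusters ran from 0.491 in cluster 5 (0.351 to 0.669) to 1.88 in cluster 8 (1.58 to 2.22), and was 1.72 (1.34 to 2.24) in cluster 1. The lower class values of both connexins in injured cord thus did not hold within most clusters, but few cells of 1 condition stand behind most of these ratios. Injured cluster 1, with most injured cells, had 488 CPM Gjb6 and 1252 CPM Gja1. Uninjured clusters 4, 8 and 11 were higher, at 636, 723 and 665 CPM Gjb6 and 1442, 1573 and 1625 CPM Gja1. Uninjured cluster 5 was lower, at 453 and 810 CPM. The class difference thus lay largely between clusters. The reporter was higher in injured cells of each of the 5 clusters, though by less than in the class as a whole. It was 2.50-fold in cluster 1 (2403 against 962 CPM, 2.01 to 3.14), 2.33-fold in cluster 4 (1.66 to 3.20) and 2.62-fold in cluster 8 (2.05 to 3.30). In clusters 11 and 5 the ratios were 1.38 (0.787 to 2.25) and 1.26 (0.855 to 1.81), and these intervals included 1.

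**Figure D3:**
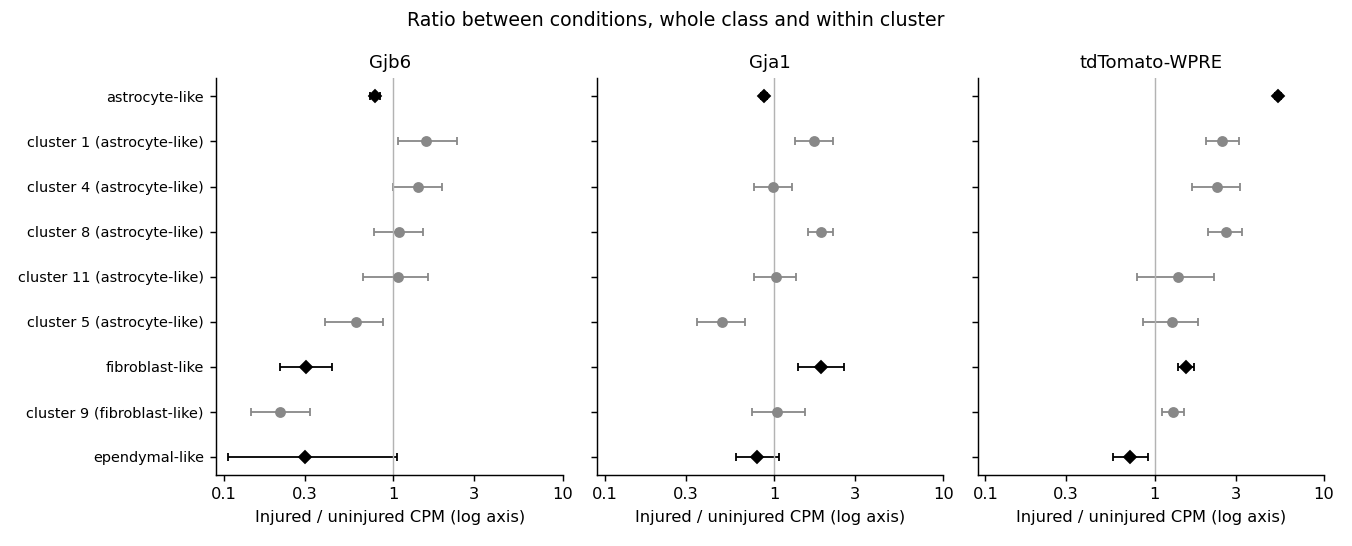
Ratio of injured to uninjured CPM (log axis) of Gjb6, Gja1 and tdTomato-WPRE for whole classes (black diamonds) and within clusters (grey circles), with 95% conditional binomial intervals and a line at 1. The reporter is 5.35-fold in astrocyte-like cells and 1.26-fold to 2.62-fold within their clusters. Gjb6 is 0.778-fold in the class but 1.56-fold in cluster 1, which holds 15 uninjured cells.

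Sex composition was examined with the same counts. Injured astrocyte-like cells scored male (120 cells) had 592 CPM Gjb6, 1608 CPM Gja1 and 1816 CPM reporter, and those scored female (73 cells) had 498 CPM, 1182 CPM and 2281 CPM (2163 to 2403). The 2405 uninjured cells scored male had 640 CPM Gjb6, 1438 CPM Gja1 and 407 CPM reporter. Among male cells alone the reporter was 4.46-fold higher in injured cells (4.22 to 4.73), Gja1 turned to 1.12-fold (1.06 to 1.18), and Gjb6 was 0.924-fold with an interval that included 1 (0.846 to 1.01). The higher reporter thus held among cells scored male, the direction of Gja1 turned, and the lower Gjb6 was no longer resolved. Scoring asks for a UMI of a sex-linked gene and so picks deeper cells. Injured cells scored male had a median of 6588.5 gene UMIs, against 3692 in their class. In uninjured cord the medians were 3869 and 3376. Whether depth or sex composition underlies these shifts was not tested.

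Outside the astrocyte-like and fibroblast-like classes, the reporter ratios of ependymal-like and OPC-like cells changed with the cells counted. Ependymal-like cells had 0.718-fold the uninjured level after injury (0.569 to 0.917), but with the 1 ependymal-like cell over the count limit, which held 274 reporter UMIs, the ratio was 0.991 (0.789 to 1.26). OPC-like cells had 3.15-fold (1.74 to 6.36), against 11 uninjured UMIs of which 3 cells gave 10, and the direction turned in the unfiltered clustering (0.541-fold, 0.283 to 1.14). For Gja1 in ependymal-like cells (0.795-fold, 0.599 to 1.07) and for both Gja1 and the reporter in endothelial-like cells (0.653-fold, 0.355 to 1.30, and 0.693-fold, 0.462 to 1.07) the intervals included 1.

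In fibroblast-like cells the connexins and the reporter had their own pattern. Injured cord gave 43 cells, all in cluster 9, and uninjured cord 47 cells in cluster 9 and 48 in cluster 12. Over the class Gjb6 was 0.305-fold (0.214 to 0.432), Gja1 1.88-fold (1.39 to 2.59), Gjb2 0.928-fold (0.575 to 1.53) and the reporter 1.53-fold (1.37 to 1.71) in injured against uninjured cells. Within cluster 9, Gjb6 was 79.0 CPM after injury and 368 CPM without (0.215-fold, 0.144 to 0.322), Gjb2 was 76.2 and 192 CPM (0.398-fold, 0.244 to 0.667), and Gja1 was 304 and 291 CPM (1.04-fold, 0.736 to 1.51). The higher Gja1 of the class was thus not found within the shared cluster, whereas lower Gjb6 was. The reporter was 1926 and 1509.7 CPM there (1.28-fold, 1.10 to 1.49). RNA of the 9 astrocyte markers moved with Gjb6, at a sum of 778 CPM after injury and 2230 CPM without in cluster 9 (7 and 9 of 9 markers above 10 CPM, 0 markers without a UMI), against 13989 and 16646 CPM in astrocyte-like cells. Its part in the lower Gjb6 of injured fibroblast-like cells was not tested. Gjb2 is low in astrocyte-like cells, at 9.19 and 13.1 CPM.

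The upper count limit removed 40 injured cells and no uninjured cells, and it bore heavily on the reporter. These 40 cells had a median of 73304 gene UMIs and held 28.1% of the gene UMIs and 46.0% of the reporter UMIs (6180) of the injured library, but 0.268% of its Gjb6 UMIs. When cells were clustered without the limit, 38 of them joined the fibroblast-like class and 1 each the ependymal-like and microglia-like classes. The 38 cells held 1852 CPM of reporter RNA (1806 to 1900) and 233 CPM of Gja1 (216 to 250.1), both in 38 of 38 cells. Their Gjb6 was 0.941 CPM (0.194 to 2.75, 3 UMIs) and their Gjb2 0.627 CPM (2 UMIs), against 79.0 and 76.2 CPM in the 43 injured fibroblast-like cells within the limit. The injured fibroblast-like cells without a limit (81 cells) had 15.3 CPM of Gjb6 (11.7 to 19.8), 14.6 CPM of Gjb2 and 246 CPM of Gja1 (231 to 262). Against the uninjured class Gjb6 was then 0.0593-fold (0.0419 to 0.0835), Gjb2 0.177-fold (0.110 to 0.292), Gja1 1.52-fold (1.15 to 2.05) and the reporter 1.48-fold (1.34 to 1.64). The ratio of Gjb2 thus moved from an interval that included 1 to one below it. The astrocyte markers summed to 228 CPM in the 38 cells, with 3 of 9 above 10 CPM, and 6 of the 7 fibroblast markers were above 10 CPM. Whether these barcodes hold more than 1 cell was not tested.

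The next question was how reporter RNA followed Gjb6 from class to class. As UMIs were counted at the 3' end of each RNA, counts were not divided by gene length, and ratios between members are read only between groups of cells. Astrocyte-like cells held 4.48 reporter UMIs per Gjb6 UMI in injured (4.18 to 4.79) and 0.651 in uninjured cord (0.629 to 0.674). In fibroblast-like cells the ratio was 24.4 (18.7 to 32.3) and 4.87 (3.85 to 6.23), and in ependymal-like cells 38.9 (23.7 to 68.4) and 16.2 (6.66 to 51.2). It was 43.3 (23.3 to 90.9) in injured OPC-like cells, a value that cannot be formed from the 46 cells of the unfiltered clustering, which held no Gjb6 UMI. Endothelial-like cells of injured cord held 142 reporter UMIs and no Gjb6 UMI, which is a ratio of at least 47.3 against a floor of 3 counts over the group. Each of these classes was above astrocyte-like cells of the same library, and the 3 classes with at least 5 Gjb6 UMIs in each library were higher in the injured than in the uninjured one by 6.88-fold (astrocyte-like), 5.00-fold (fibroblast-like) and 2.40-fold (ependymal-like). The ependymal-like intervals of the conditions overlapped, and the injured ratio of that class rested on few cells. Its 16 Gjb6 UMIs lay in 2 of 144 cells, and 3 cells held 227 of its 622 reporter UMIs. Injured microglia-like cells, which should lack the reporter, had 61 reporter and 4 Gjb6 UMIs. Their ratio of 15.25 (5.66 to 57.8) was also above that of astrocyte-like cells. Uninjured microglia-like cells held 1 Gjb6 UMI and no reporter UMI. A high ratio at such low Gjb6 counts thus does not by itself show reporter transcription in a class.

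Gja1 per Gjb6 UMI differed far less between the conditions in astrocyte-like cells, at 2.54 (2.36 to 2.73) in injured and 2.27 (2.21 to 2.32) in uninjured cord, which is a quotient of 1.12. Over the 5 astrocyte-like clusters it ran from 1.79 in cluster 5 (1.64 to 1.95) to 2.44 in cluster 11 (2.35 to 2.55) in uninjured cells, and from 1.46 in cluster 5 (0.884 to 2.46) to 3.79 in cluster 8 (2.63 to 5.57) in injured cells. In fibroblast-like cells it was 3.84 in injured (2.86 to 5.24) and 0.624 in uninjured cord (0.434 to 0.889). Of these 4 groups, uninjured fibroblast-like cells alone held more Gjb6 than Gja1 UMIs.

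**Figure D4:**
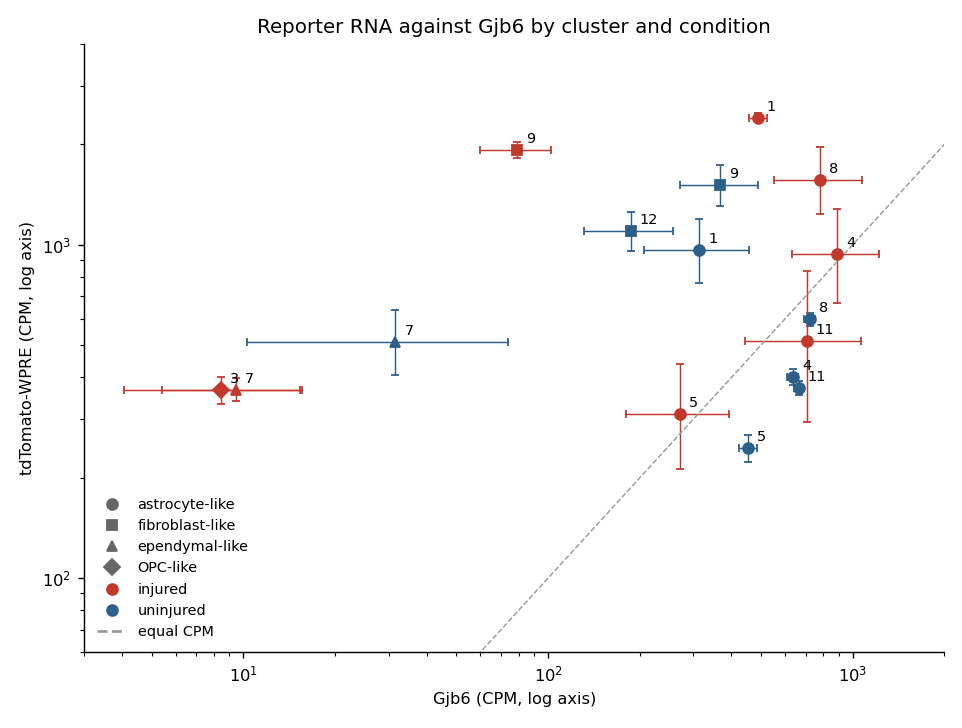
tdTomato-WPRE against Gjb6, both in CPM on log axes, for each cluster of 4 classes in each condition (numbers are clusters; bars are 95% Poisson intervals; the dashed line marks equal CPM). Uninjured astrocyte-like clusters 4, 5, 8 and 11 lie below the line and injured cluster 1 above it (488 and 2403 CPM), while injured fibroblast-like cluster 9 has 1926 CPM of reporter RNA at 79.0 CPM of Gjb6 and the ependymal-like cluster 367 CPM at 9.44 CPM. Uninjured cluster 9 lies further right, at 368 CPM of Gjb6.

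Grouping astrocyte-like cells by their Gjb6 UMIs showed little difference in reporter RNA, but it cannot settle whether both follow each other from cell to cell. Thinned cells held on average 0.610 (uninjured) and 0.454 (injured) Gjb6 UMIs, so counting error bears heavily on the group of a cell. All cells had also been sorted for tdTomato. After thinning to 1000 gene UMIs, uninjured cells with 0, 1 and 2 or more Gjb6 UMIs held 0.384 (1918 cells), 0.441 (1057 cells) and 0.430 (453 cells) reporter UMIs on average. The ratio to cells without Gjb6 was 1.15 (1.02 to 1.29) at 1 UMI and 1.12 (0.953 to 1.32) at 2 or more. Injured cells held 2.33 (245 cells), 2.65 (75 cells) and 1.80 (35 cells), and the ratios were 1.14 (0.964 to 1.34) and 0.772 (0.586 to 1.00), so that no rise with Gjb6 was resolved. Grouped by Gja1 instead, uninjured cells with 2 or more UMIs held 0.472 and those without 0.357 (ratio 1.32, 1.16 to 1.50), and injured cells 2.31 and 2.43 (0.948, 0.802 to 1.12). At each number of Gjb6 UMIs the injured cells held more reporter RNA than the uninjured cells, 2.33 against 0.384 where no Gjb6 was counted. Cells of 1 library are not replicates, and the intervals treat UMIs as independent counts.

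**Figure D5:**
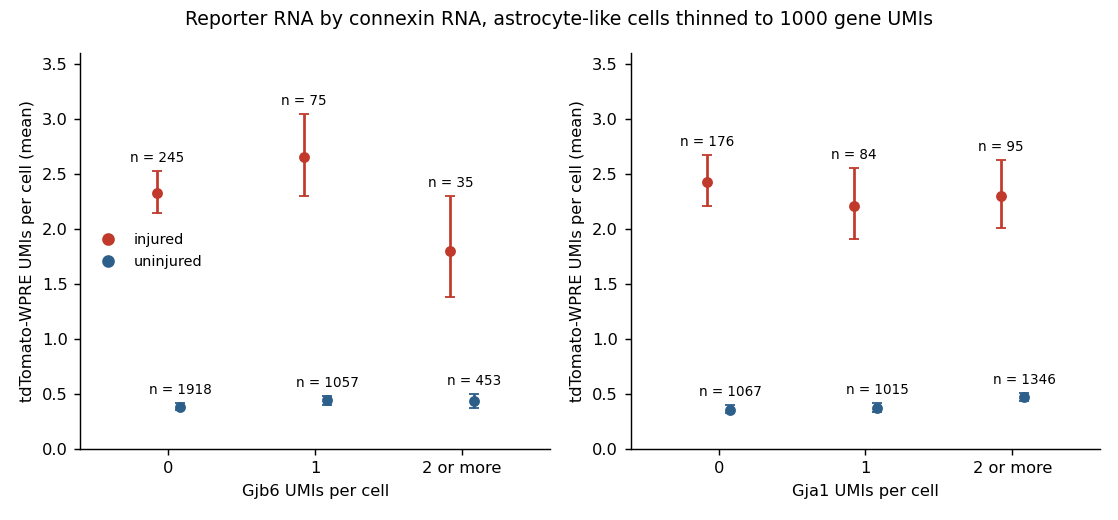
Mean tdTomato-WPRE UMIs per astrocyte-like cell, thinned to 1000 gene UMIs, for cells with 0, 1 and 2 or more UMIs of Gjb6 (left) or Gja1 (right); bars are 95% Poisson intervals and n is the number of cells. Injured cells lie between 1.80 and 2.65 and uninjured cells between 0.357 and 0.472. In uninjured cells the ratio of 2 or more to 0 UMIs is 1.32 for Gja1 (1.16 to 1.50) and 1.12 for Gjb6 (0.953 to 1.32). The groups rest on few UMIs per cell, with a mean of 0.610 for Gjb6 in uninjured cells.

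The reporter feature joins tdTomato with a WPRE element, and the viral cassette carries a WPRE3 element, so viral transcripts could in principle add to it. Enhancer barcodes were at 272 CPM in injured and 59.2 CPM in uninjured astrocyte-like cells. Reporter UMIs per 1000 gene UMIs were 2.32 (2.13 to 2.53) in the 232 injured cells with a barcode UMI and 2.39 (2.12 to 2.68) in the 123 without. In the uninjured library they were 0.373 (0.328 to 0.423) and 0.416 (0.392 to 0.440). The reporter was thus as high in astrocyte-like cells without a barcode UMI in both conditions. Those cells were shallower, with medians of 2329 against 5298 gene UMIs in injured and 3246 against 4266 in uninjured cord. A cell without a counted barcode UMI may still hold virus, so a part of viral transcripts in the reporter counts was not tested. Microglia-like cells held 222 CPM of barcodes and 32.3 CPM of reporter in injured cord, and 119.7 CPM of barcodes with no reporter in uninjured cord.

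Other connexins and pannexins, which form related channels, were followed through a list of 20 genes, all of them among the features. None reached 10 CPM in astrocyte-like cells of either condition, so none could be compared there. In other classes Gjc1 (connexin 45) was highest in endothelial-like cells, with 173.6 CPM (145 to 206) in the injured and 141.5 CPM (79.2 to 233) in the uninjured library. It was also found in fibroblast-like (47.1 and 30.4 CPM) and ependymal-like cells (21.2 and 31.5 CPM). Gjc3 (connexin 29) was highest in OPC-like cells, with 239.8 CPM (213 to 269) in 43 of 70 injured cells (278 CPM in the 46 cells of the unfiltered clustering). The 14 uninjured OPC-like cells, too few for the naming rule, had 380 CPM (266 to 526), with Gjc3 in 13 of them. Uninjured fibroblast-like cells had 24.4 CPM of Gjc3. Gja4 (connexin 37), known from vessels, had 47.2 CPM (5 UMIs) in uninjured endothelial-like and 29.1 CPM in injured fibroblast-like cells. Panx1 had 16.0 CPM (19 UMIs) in injured OPC-like cells, and Gjb5 15.2 CPM (5 UMIs) in uninjured fibroblast-like cells.

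Among 8 partners of gap junctions, 0 were past 2-fold between the conditions in astrocyte-like cells, with a median log2 difference of 0.04. Over all 9898 genes tested the share past 2-fold was 17.2%, so a count of 0 among 8 does not set the partners apart. Mlc1, a membrane protein of astrocyte endfeet, had 375.5 CPM after injury and 244 CPM without (log2 0.62). Hepacam, an adhesion protein that binds Mlc1 and connexin 43, had 482 and 515 CPM (log2 -0.10). The scaffold protein Tjp1 had a log2 difference of -0.34, and Cnst, which takes part in the transport of connexins, one of -0.89 (12.1 and 23.3 CPM). The kinases Src and Csnk1d and the ubiquitin ligase Nedd4 had 0.28, -0.05 and 0.14.

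Genes with a pattern like that of a member were sought over the 13 sums of a class and a condition with at least 20 cells, by Pearson's r of log2(CPM + 1) among 8944 genes, as a description. These sums come from 2 libraries and differ in depth, and 1 of them is the injured OPC-like sum, which depended on the clustering. For Gjb6 those near it included Igfbp2 (r = 0.97), Enpep (0.95), Entpd2 (0.93) and Itih3 (0.92), with Gjb2 at rank 385, Gja1 at rank 469 and the reporter at rank 1211 (r = 0.51). For Gja1 they were Gm48742 (0.96), Rora (0.96), Gstt1 (0.95), Limk2 (0.94) and Wfs1 (0.94), with the reporter at rank 85 (r = 0.86). For the reporter they were Parva (0.94), Fgfr1 (0.94), Aamdc (0.92), Gstt1 (0.92) and Gmcl1 (0.91), with Gja1 at rank 69, Gjb2 at rank 1213 and Gjb6 at rank 1618. Over these sums the reporter was closer to Gja1 than to the gene after which the line is named.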

How the data were processed

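Raw UMI counts were deposited by the authors as 1 matrix per condition, which the file headers assign to Cell Ranger 7.1.0, while the submitters' processing notes name 8.0.1 and mm10. The deposited counts were not normalised, and cells had been called by the authors. Identifiers matched GENCODE M21 on GRCm38 for 32158 of 32285 genes (99.6%). As in the study, barcodes had to exceed 500 gene UMIs and stay under 50000. After scaling each cell to 10000 and a log transform, 2000 variable genes that exclude the members fed 15 components, 15 neighbours and Leiden clustering at resolution 0.5 in scanpy 1.11.5 (Python 3.11.15). A cluster took the class with the highest mean marker score above 0.2 of 13 lists, provided that 3 of the markers reached 10% of the cluster's cells and that its top 10 genes favoured no other list. Sex was scored from Xist against the Y-linked Ddx3y, Eif2s3y, Kdm5d and Uty. Doublets were not removed, with the top 5% of Scrublet scores left out as an alternative.

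With 1 library per condition no test was made. Levels are CPM of summed UMIs with exact Poisson intervals, shares have exact Clopper-Pearson intervals and ratios exact conditional binomial intervals, all at 95%. Named were the members, the listed connexins and pannexins with at least 10 CPM in a class of at least 20 cells, the partners, and the 5 genes most like each of 3 members among genes with at least 50 CPM in a sum. Members and lists were chosen with earlier results of these data known. The ratio script was tested on simulated data. Enhancer barcodes, deposited as antibody capture counts, were used as sums. Not analysed here were the separate enhancers. Some genes that the naming rule covers are not reported here.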

Additional observations from a re-analysis of the deposited data

Results flagged for a closer look

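The ratio of injured to uninjured CPM lay on opposite sides of 1 in different classes for both genes below, with intervals that excluded 1, and the difference between the classes was not tested because each condition is 1 library. Gja1 was 0.872-fold in astrocyte-like and 1.88-fold in fibroblast-like cells, although within the fibroblast-like cluster found in both conditions it was 1.04-fold. In astrocyte-like cells it was 1.12-fold among cells scored male, 1.72-fold in cluster 1 and 1.88-fold in cluster 8, so that neither side held throughout. The reporter tdTomato-WPRE was 5.35-fold in astrocyte-like, 3.15-fold in OPC-like (11 uninjured UMIs) and 1.53-fold in fibroblast-like cells, but 0.718-fold in ependymal-like cells. The ependymal-like ratio was 0.991 (0.789 to 1.26) with the 1 cell over the count limit, and the OPC-like ratio turned to 0.541 (0.283 to 1.14) when no cells were filtered, so that the opposite sides of 1 did not hold for the reporter.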

How the results depend on the processing

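Each value below is read against its counting interval, as there are no replicates. The count of other connexin and pannexin genes past 2-fold has no interval and was read as equal or not. Of 131 alternative values, 93 stayed within the interval or at an equal count, 37 moved and 1 changed direction. That gene count gave 13 of the 131 values, of which 12 stayed at 0. As none of its 20 genes was tested in the main setting, these 12 say nothing about stability. Among cells scored male alone the log2 difference between conditions in astrocyte-like cells turned to 0.16 for Gja1 and moved to -0.11 for Gjb6 and 2.16 for the reporter, with a reporter share of 95.8% in injured and 71.2% in uninjured cells and 3.07 reporter UMIs per Gjb6 UMI in injured cells. In cells with an Aldh1l1 UMI the log2 differences were -0.41 (Gja1), -0.65 (Gjb6) and 2.27 (reporter), the shares 94.3% and 73.5%, and the ratio in injured cells 5.07. As a mean over cells the differences were -0.47 (Gja1) and -0.57 (Gjb6), and the reporter per Gjb6 was 5.45 and 0.681 in injured and uninjured astrocyte-like and 15.8 and 6.53 in fibroblast-like cells. With the members kept in clustering, Gja1 was at -0.29 and Gjb6 at -0.48. Without cells that hold a barcode UMI, Gja1 was at -0.13, Gjb6 at -0.48, the injured reporter share 79.6% and the injured ratio 4.93. Without a filter the reporter difference was 2.49, its injured share 90.8%, and its ratio to Gjb6 4.84 in injured astrocyte-like and 121.6 in injured fibroblast-like cells, through the added cells over the limit. Injured fibroblast-like cells scored male gave 12. Counting cluster 6 as astrocyte-like gave a reporter difference of 2.36. Injured reporter shares were 92.3% at Leiden resolution 1.0. With 2 UMIs asked of a positive cell the shares were 77.8% and 40.2%, with thinning 72.7% and 31.9%, and without the low-depth cluster 5, an alternative chosen after seeing the data as were those on shared barcodes, on cluster 9, on the OPC-like class and on adding a class's cells over the limit, 96.1% and 75.4%. With no minimum CPM, 2 other connexin or pannexin genes were past 2-fold against 0. The causes of these shifts were not tested unless stated. EGFP, with 1 UMI, gave no value under any alternative. No paired analysis was possible because a single library stands on each side. Depth limits the classes with few UMIs: Gjb6 outside astrocyte-like and fibroblast-like cells, Gjb2 in astrocyte-like cells, and all members in the 31 or fewer uninjured cells of the ependymal-like, endothelial-like, OPC-like and microglia-like classes.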
